A study of Mus musculus with 1699 samples.

Results

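The Th-negative cells of embryonic day 13.5 (E13.5) were chosen by 2 measured values, a sum of reads over 100000 and a Th level of 10 or less in RPKM (reads scaled to the length of the gene model and to the mapped reads of the cell). They made up 7.71% of the 1699 single cells of the series and 39.6% of its E13.5 cells. Of them, 44 came from Pitx3eGFP/wt heterozygotes and 87 from homozygotes of the same targeted allele (Pitx3tm1Mli, Pitx3eGFP/eGFP), in which the eGFP sequence sits in both copies of the Pitx3 locus. All cells came from dissected ventral midbrain and had been sorted for eGFP fluorescence, so both groups carried at least 1 reporter allele and neither holds cells with 2 intact copies of Pitx3. cDNA of each cell was made with Smart-seq2, a full-length method without strand information.

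Several limits apply to every value. The heterozygotes were prepared without ERCC spike-in RNA and the homozygotes with it, and the homozygote cells fell into 3 title sets, 13H_4 (40 cells), 13H_5 (13 cells) and 13H_6 (34 cells), none shared with the heterozygotes. Genotype, spike-in and set of libraries therefore cannot be told apart at this stage. Pitx3eGFP/wt heterozygotes of postnatal day 1 (P1) were prepared both with and without spike-in, and their cells with Th over 150 are given below as a comparison of spike-in within 1 genotype. These P1 groups are also different cells in separate libraries, so a difference between them cannot be assigned to the spike-in alone. The labels tie no cell to an animal, so each genotype is 1 sample. No test between genotypes was made, and the intervals given for shares (exact Clopper-Pearson for a share, Newcombe for a difference, both at 95%) cover counting error only. In such samples, fewer cells of a type and less RNA per cell cannot be told apart from a mean alone.

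Th encodes tyrosine hydroxylase, the rate-limiting enzyme of dopamine synthesis. Pitx3 is a paired-like homeodomain transcription factor that, in the midbrain, marks dopamine neurons and a smaller set of related neurons, and mice without it lose most dopamine neurons of the substantia nigra. Midbrain dopamine neurons arise from floor plate progenitors marked by Lmx1a and Foxa2, switch on Nr4a2 on leaving the cell cycle, and then acquire Ddc, Slc18a2 and Slc6a3, the genes for the enzyme that makes dopamine, the vesicular transporter and the plasma membrane transporter.

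The members were selected on Th, so its values are a description only. Among heterozygote cells over the read minimum, 31.4% were Th-negative (interval 23.9 to 39.8%). Among homozygote cells it was 46.8% (interval 39.4 to 54.2%), which is higher by 15.3 points (interval 4.62 to 25.4). By set of homozygotes the share was 44% in 13H_4, 54.2% in 13H_5 and 47.9% in 13H_6, each above the heterozygote share. Few cells lay near the threshold. The highest Th value inside was 7.26 in heterozygotes and 8.53 in homozygotes, and the lowest outside was 16.9 and 24.2. A read of Th was present in 43 of the 44 heterozygote cells and in 41 of the 87 homozygote cells. The homozygote cells were also shallower. The sum of reads ranged from 1406160 to 5876415 (median 2371086) in the heterozygote cells and from 108618 to 3844520 (median 734702) in the homozygote cells, and was lowest in 13H_5 (median 215198). The number of entries with a read was closer, with medians of 6753 and 6487. With every cell thinned to 100000 reads, the Th-negative share was 27.1% in heterozygotes and 44.6% in homozygotes.

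The cells were neurons by their markers in all but 1 case. Tubb3, the neuronal beta-tubulin, averaged 3276 in heterozygotes and 3878 in homozygotes and exceeded 10 in 43 of 44 and 87 of 87 cells. The median ratio of the 15 pan-neuronal genes was 1.10, against 0.966 over all entries. None of them was at least 2-fold different, a count near the 5.21% higher and 5.62% lower of all entries. A single heterozygote cell had Tubb3 at 4.19 with Fabp7 at 5624, Hes5 at 1214 and Slc1a3 at 594, all genes of radial glia. No cell had 3 or more markers over 10 of the erythroid, endothelial, microglial, mural or oligodendrocyte lists, and the summed microglial and mural lists never exceeded 0.523 and 0.321 in any cell. The summed erythroid list reached 266.9 in heterozygotes and 61.2 in homozygotes, and the oligodendrocyte list 83.8 and 192.2. The endothelial list reached 112.5 in heterozygotes and in homozygotes was over 10 for 3 of its 6 markers, with a median of at most 0.205 in each case. Serotonergic and cholinergic genes (Tph2, Fev, Chat) had a mean of 0 in both genotypes.

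The label of the allele was checked at the locus itself. Pitx3 (chromosome 19, 46135685 to 46148326, minus strand, mm10) ranged from 0 through a median of 235.4 to 1679 in heterozygotes and from 0 through 13.7 to 94.7 in homozygotes. The means were 370 and 19.5, 19-fold lower in homozygotes, with 16.6 in 13H_4, 4.71 in 13H_5 and 28.4 in 13H_6. The ranges overlapped, and 10 heterozygote cells had Pitx3 at 10 or less. eGFP went the other way, with a median of 176.7 and a maximum of 828 in heterozygotes against 722 and 2738 in homozygotes. Its mean was 266.7 and 814, a 3.05-fold higher level, although 13H_5 alone stood at 261.5. The share of cells with eGFP over 10 was 84.1% and 80.5%, a difference of -3.63 points (-16.1 to 11.5). Reads that the deposited tables assign to Pitx3 thus remained at a low level in homozygotes, and the files do not show from which exons.

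Elovl3, a fatty acid elongase gene on the plus strand at 46131897 to 46135694 of the same chromosome, ends inside the last bases of Pitx3. It exceeded 10 in 27 of 44 heterozygote cells and 1 of 87 homozygote cells (a difference of -60.2 points, -73.2 to -44.6), with means of 37.5 and 0.173. Without strand, reads of the shared bases of Elovl3 and Pitx3 cannot be assigned to either gene, and whether the Elovl3 values come from Pitx3 transcripts was not tested. Gbf1, the next gene on the other side, had means of 155.6 and 144.7 and was over 10 in 88.6% and 85.1% of cells. In the E13.5 cells with Th over 150 (90 heterozygote and 81 homozygote cells), Pitx3 averaged 429 and 18, eGFP 336 and 639, and Elovl3 40.3 and 3.09. The same 3 genes thus differed in the same direction in cells with much Th.

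**Figure D1:**
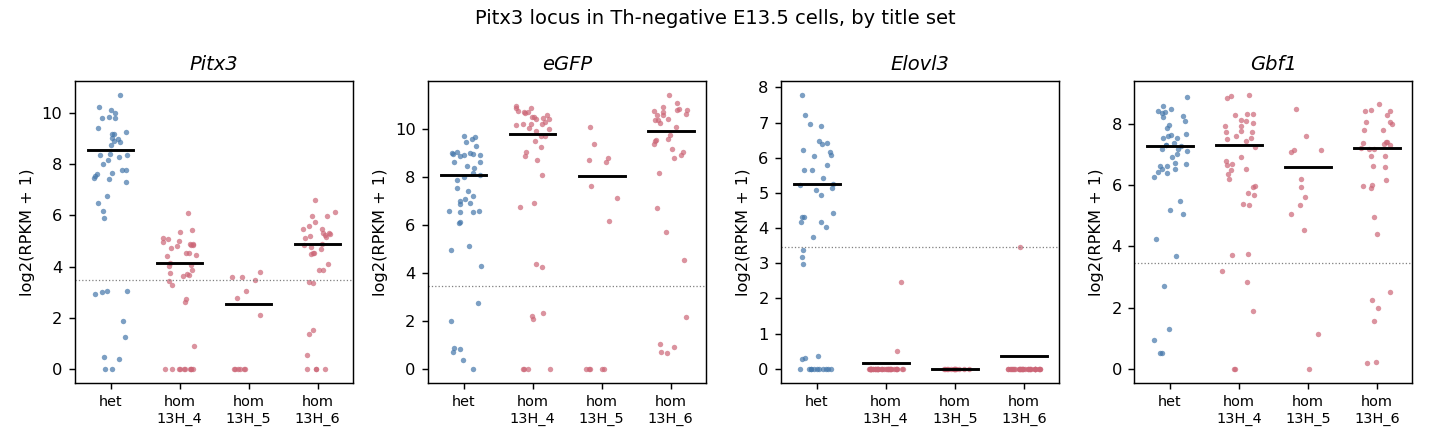
Each point is 1 Th-negative E13.5 cell, the y axis gives log2(RPKM + 1), the bar marks the mean RPKM of the set and the dotted line an RPKM of 10. Pitx3 reached 1679 in heterozygotes and 94.7 in homozygotes, Elovl3 was over 10 in 27 heterozygote cells and 1 homozygote cell, and the Gbf1 ranges overlapped.

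Across the transcriptome, 8317 entries passed the filter on low values, a mean RPKM of 10 or more in the heterozygote or the homozygote cells. An entry that passes through 1 genotype alone has a lower mean in the other by this rule, though not always 2-fold lower. Counts over those that passed therefore describe them and are no support. At least 2-fold higher in homozygotes were 433 of them (5.21%), and at least 2-fold lower 467 (5.62%), with a median ratio of 0.966. Many of these calls depended on 1 cell, through the fold or through the mean of 10. Leaving out the highest cell of an entry in either genotype kept 63% of the higher and 37.7% of the lower entries at 2-fold and at a mean of 10. Of the 54 genes from the lists and from the ranking over sets that were at least 2-fold different, 33 stayed so, and those that did not are pointed out.

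Of the 13 genes of dopamine synthesis and handling, 8 were expressed at this level, 4 were lower and none was higher, beside 5.62% and 5.21% of all entries, with a median ratio of 0.585 against 0.966. Ddc (aromatic L-amino acid decarboxylase) ranged from 0 through 587 to 2492 in heterozygotes and from 0 through 205.2 to 2290 in homozygotes. Its mean was 696 and 318.7, 2.18-fold lower, and its share of cells over 10 was 97.7% and 78.2% (-19.6 points, -29.5 to -7.50). All but 1 heterozygote cell, the cell without Tubb3, were thus above 10, whereas 19 homozygote cells were not. The 19 included cells with eGFP at 10 or less and also cells with eGFP far over 10, such as 1583.8 and 1522.7. The mean in each homozygote set was lower than in heterozygotes, at 0.527, 0.258 and 0.453 of the heterozygote mean in 13H_4, 13H_5 and 13H_6.

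Slc18a2, the vesicular monoamine transporter, averaged 104.6 and 41.7 (2.51-fold lower). Its median was 67.5 in heterozygotes and 4.32 in homozygotes, and its share over 10 was 61.4% and 48.3%, a difference whose interval included 0 (-29.5 to 4.92). Slc10a4, a vesicle protein related to bile acid transporters, averaged 75.8 and 16.1 (4.69-fold lower), and was over 10 in 43.2% and 28.7% of cells. Slc6a3, the dopamine transporter, was over 10 in 2 heterozygote cells and 0 homozygote cells (the exact interval for 0 of 87 ends at 4.15%, and a floor of 3 cells is 3.45%). Its means of 20.7 and 0.0209 rested on 1 heterozygote cell at 823, and without that cell the heterozygote mean was 2.04.

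Not all of the pathway moved in this direction. Gch1, the first enzyme in the synthesis of the tetrahydrobiopterin cofactor of tyrosine hydroxylase, averaged 69.5 and 112.3 (1.62-fold) and was over 10 in 31.8% and 58.6% of cells (26.8 points, 8.71 to 42.1), though its mean in 13H_5 was 40.7. Qdpr and Pts had ratios of 1.18 and 1.23. Neither Ddc nor Slc18a2 was over 10 in 1 heterozygote cell (2.27%) and 17 homozygote cells (19.5%), a difference of 17.3 points (5.46 to 27), and both were in 61.4% and 46%. The 1 heterozygote cell was the cell without Tubb3 described above. The 17 homozygote cells included cells with eGFP at 10 or less, among them cells with Gad1 that are described below. Cells with eGFP far over 10, such as 1583.8 and 1522.7, were also among the 17. The part of the mix of cells in this difference was not tested. In the cells with Th over 150, Ddc averaged 1383 and 1050, Slc18a2 282.4 and 127.9, and Slc10a4 367.6 and 148.4.

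Of the 8 genes that earlier work in other material tied to Pitx3, 5 were expressed, with 3 lower (Slc6a3, Slc18a2, Bdnf) and 1 higher, beside 5.62% and 5.21% of all entries. Of the lower calls, those of Slc6a3 and Bdnf were lost without 1 cell. The higher gene was Cck, which encodes the neuropeptide cholecystokinin. Cck exceeded 10 in 4 of 44 heterozygote cells and 39 of 87 homozygote cells, or 9.09% and 44.8% (35.7 points, 20.1 to 47.5), and ranged from 0 through 0.778 to 1126 and from 0 through 1.88 to 1157. The mean was 56 and 124.5 (2.22-fold), but 33.7 in 13H_5. No heterozygote cell and 27 homozygote cells (31%) had both Cck and Nxph4 over 10. In the cells with Nxph4 at 10 or less the direction turned, with a log2 ratio of -0.30 on mean RPKM + 1. At P1, Cck was lower in heterozygotes with spike-in (248.9) than in those without (522). Bdnf, a neurotrophin, averaged 11.8 and 1.97, and 7.71 in heterozygotes without the highest cell. Aldh1a1, Drd2 and Rgs6 averaged 1.07 or less in both genotypes.

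Among 15 transcription factors of the midbrain dopamine lineage, 12 were expressed, 2 were higher and none was lower, beside 5.21% and 5.62% of all entries, with a median ratio of 1.13. Foxa1, a forkhead factor of the floor plate and its neurons, averaged 47.7 and 100.5 (2.11-fold), and was over 10 in 52.3% and 79.3% of cells (27 points, 10.1 to 43.1). Without its highest homozygote cell the ratio was 1.99, and in 13H_5 the mean was 46.5. En2, an engrailed homeobox gene, averaged 11.9 and 31.1 (2.61-fold), and was over 10 in 43.2% and 69% (25.8 points, 7.89 to 41.9). Its mean in 13H_5 was 12.2. Both factors were thus at the heterozygote level in the shallowest set and above it in the others.

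Nr4a2, the orphan nuclear receptor required for the dopamine phenotype, ranged from 0.740 through a median of 863 to 2381 in heterozygotes, and reached 1957 in homozygotes around a median of 429. The means of 871 and 478 made a 1.82-fold lower level, short of 2-fold, with 453, 416 and 530 in the 3 sets. Lmx1a averaged 188.3 and 164.4, Pbx3 171.3 and 237.5, and En1 26.8 and 23.4. Nr4a2, Lmx1a and Foxa2 were all over 10 in 75% of heterozygote and 67.8% of homozygote cells (-7.18 points, -21.9 to 9.77). None of the 3 was in 0 heterozygote cells and 5 homozygote cells (5.75%). These 5 included cells with Gad1 and with eGFP at 10 or less, which are described below.

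Wnt5a, a secreted Wnt ligand of the ventral midbrain floor plate and young dopamine neurons, was the lower gene of the progenitor list with the broadest difference. It ranged from 0 through 225.6 to 1056 in heterozygotes and from 0 through 20.7 to 765 in homozygotes. Its mean was 273.3 and 93 (2.94-fold lower), with 73.8, 78.4 and 121.1 in the 3 sets, and its share over 10 was 79.5% and 55.2% (-24.4 points, -38.4 to -7.12). In the cells with Th over 150 it averaged 240 and 37.7. P1 heterozygotes with and without spike-in stood at 94.3 and 111.3. The groups overlapped over most of the range, and 39 homozygote cells against 9 heterozygote cells lay at 10 or less.

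Of the 15 floor plate and radial glia genes of that list, 8 were expressed, 5 were lower and none was higher, beside 5.62% and 5.21% of all entries. Besides Wnt5a the lower genes were Fabp7, Hes5, Slc1a3 and Id3, and each of these calls came from the 1 heterozygote cell without Tubb3. With that cell left out, the heterozygote means were 19, 2.33, 0.690 and 5.11, against 13.7, 3.28, 4.29 and 6.21 in homozygotes. Cell cycle genes were low in both genotypes: 3 or more of the 12 were over 10 in 4.55% and 3.45% of cells.

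**Figure D2:**
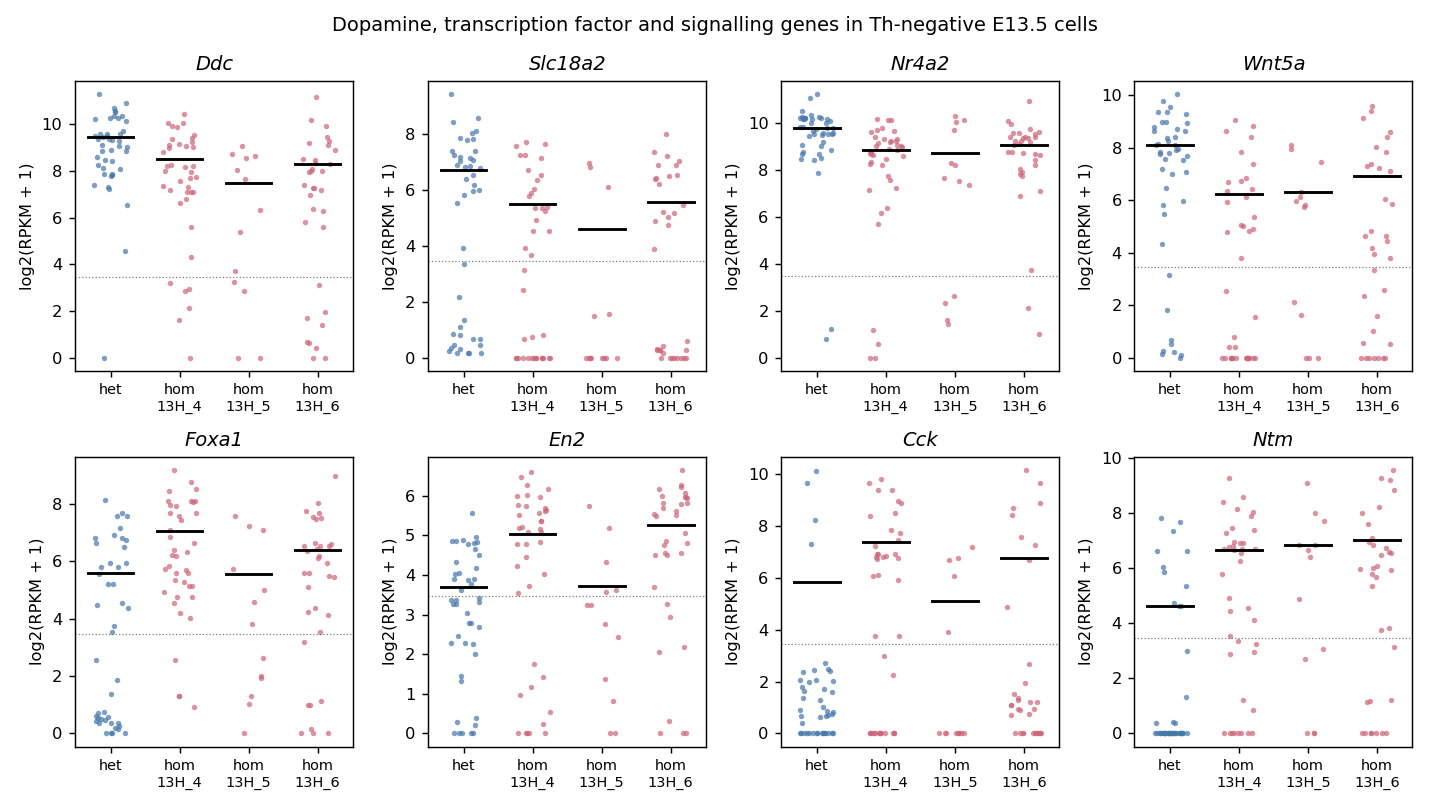
Each point is 1 Th-negative E13.5 cell in log2(RPKM + 1), bars mark mean RPKM and the dotted line an RPKM of 10. Ddc, Slc18a2 and Wnt5a had lower means in all 3 homozygote sets, Ntm had higher means in all 3, and the higher means of Foxa1, En2 and Cck were not shared by 13H_5 (46.5, 12.2 and 33.7).

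Of the 15 proneural and newborn-neuron genes, 7 were expressed, 1 was higher and 2 were lower, beside 5.21% and 5.62% of all entries, with a median ratio of 0.671 against 0.966. Neurod1, a bHLH factor of differentiating neurons, averaged 15.2 and 2.96 (5.15-fold lower) and was over 10 in 9 and 8 cells. The Notch ligand gene Dll3 averaged 95.7 and 30.8 (3.10-fold lower), with nearly the same share over 10, 36.4% and 33.3%. Its relative Dll1 was higher, at 4.44 and 14.2 (3.19-fold), and over 10 in 11.4% and 26.4%. Hes6, Sox4 and Nhlh2 had ratios of 1.08, 0.870 and 0.661.

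Of 7 glutamate and GABA genes 4 were expressed, with Gad1 higher and Gad2 lower, beside 5.21% and 5.62% of all entries. Slc17a6, the vesicular glutamate transporter of the midbrain, averaged 69.9 and 60.8 and was over 10 in 56.8% and 64.4% of cells (7.55 points, -9.54 to 24.8). Gad2, one of the enzymes that make GABA, was over 10 in 12 of 44 heterozygote cells and 17 of 87 homozygote cells (27.3% and 19.5%, -7.73 points, -23.9 to 6.77). The mean over all 44 and 87 cells was 151.7 and 20.4 (7.45-fold lower), which holds the number of Gad2 cells and their level together. The highest cell was at 1224 and 268.3. The heterozygote cells with Gad2 ran from 33.3 through 443 to 1224, and 9 of the 12 exceeded 150.

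The homozygote Gad2 cells divided by Gad1. In 9 of them Gad1, the other GABA-synthesis gene, was at 10 or less, as in all 12 heterozygote cells. All 9 had eGFP and Nr4a2 over 10 and 8 had Ddc over 10. Their Gad2 ran from 10.3 through 51.6 to 215.1, and 2 exceeded 150. Cells of this kind were 27.3% of heterozygotes and 10.3% of homozygotes (-16.9 points, -32.3 to -3.29). In the other 8 both Gad1 and Gad2 were over 10, with Gad1 from 64.4 to 563. No heterozygote cell had Gad1 over 10 (the exact interval for 0 of 44 ends at 8.04%, and a floor of 3 cells is 6.82%). Among cells with Nxph4 the log2 ratio of Gad1 was -0.03.

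The 8 Gad1 cells came from all 3 sets (3, 3 and 2 cells) and were unlike the rest. eGFP was at 10 or less in 6 of them and Nr4a2 in 6. The GATA and bHLH factors of midbrain GABA neurons were among their genes: Gata2 and Tal1 were over 10 together in 5, Gata3 in 5, and the LIM factor Lhx1 in 5. A single cell had Isl1, a LIM factor of motor and other neurons, at 1048, and this cell made the Isl1 call (2.32 and 15.8). Cells with eGFP at 10 or less were 15.9% of heterozygote and 19.5% of homozygote cells. The study's methods set aside cells that clustered with others lacking eGFP and rich in Olig1, an oligodendrocyte lineage factor. The labels do not mark those cells, so none was left out here. Leaving out the Gad1 cells, 431 entries were higher and 475 lower.

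**Figure D3:**
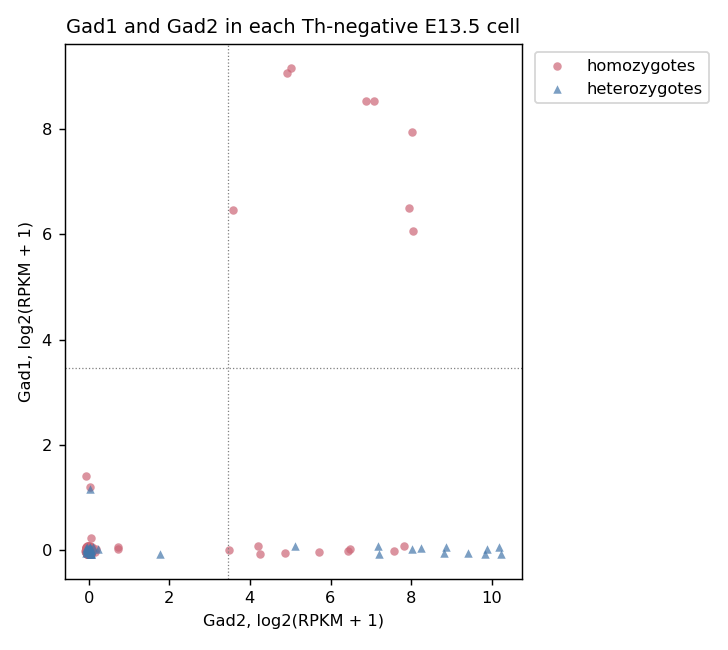
Each point is 1 Th-negative E13.5 cell, with Gad2 on the x axis and Gad1 on the y axis in log2(RPKM + 1), a small jitter added and dotted lines at an RPKM of 10. Cells with Gad1 were 8 homozygote cells and 0 heterozygote cells, and the heterozygote Gad2 cells without Gad1 reached 1224 while the homozygote ones reached 215.1.

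Gata3 was over 10 in 16 homozygote cells (18.4%) and 0 heterozygote cells. Gad1 cells held Gata3 at 1243.7, 545.2 and 256.2, so the mean behind its call rested largely on them. Among the 79 homozygote cells without Gad1, it was over 10 in 11 (13.9%), with a median of 4.63 against 0.416 in heterozygotes and a lowest value of 0.379. P1 heterozygotes with and without spike-in had means of 3.63 and 1.56, and the part of the spike-in in the E13.5 difference was not tested. Other neighbouring factors were rare: Pou4f1 was over 10 in 3 and Gata2 in 5 homozygote cells, and neither in a heterozygote cell. Foxp2, which many cells of both genotypes expressed, averaged 430 and 419.

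The Dat-low branch genes, which the study chose on cells of this series and which are therefore no independent list, had 8 of 10 members expressed and 1 lower, near the 5.62% of all entries. This was Nfia, a nuclear factor I gene. Nfia averaged 11.3 and 4.39, and 8.18 in heterozygotes without the highest cell, which ended the call. Nxph4, a secreted neurexophilin of that list, averaged 326.8 and 210, and was over 10 in 63.6% and 70.1% of cells (6.48 points, -9.78 to 23.6). Ebf2 averaged 250.5 and 180.7 and Ebf3 37.7 and 46.9. Of the 5 Dat-high genes, chosen by the study in the same way, 3 were expressed, with Slc6a3 lower as given above and 1 gene higher, beside 5.62% and 5.21% of all entries. This was Id4 (5.31 and 32.3), with 1 homozygote cell at 1852 and a mean of 11.1 without it.

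**Figure D4:**
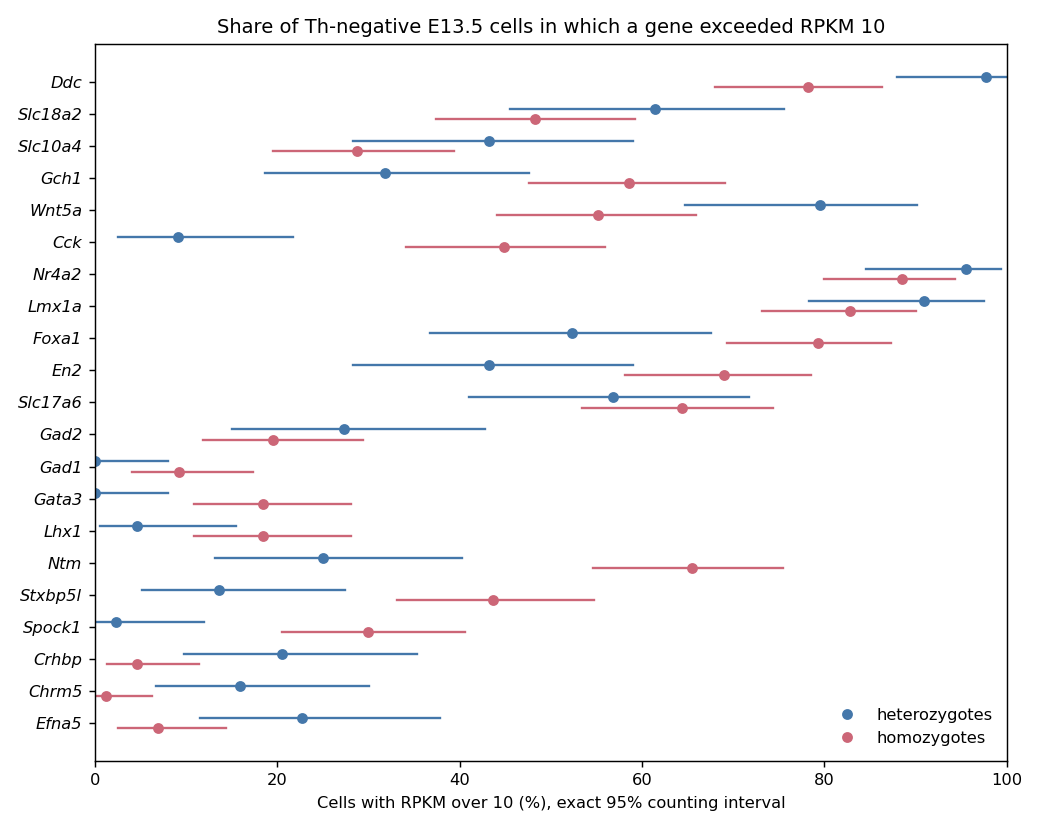
Points give the percent of Th-negative E13.5 cells with a gene over an RPKM of 10 and lines the exact 95% interval for counting error, blue for 44 heterozygote and red for 87 homozygote cells. Cck (9.09% and 44.8%) and Ntm (25% and 65.5%) had intervals that did not overlap, and Slc17a6 (56.8% and 64.4%) and Lmx1a had intervals that did.

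Of 21 axon guidance genes 13 were expressed, 1 was higher and 2 were lower, where 5.21% and 5.62% of all entries were, with a median ratio of 0.693 against 0.966 over all entries. Efna5, an ephrin ligand, averaged 17.6 and 3.48 (5.07-fold lower) and was over 10 in 22.7% and 6.90% of cells (-15.8 points, -30.6 to -3.52), but its log2 ratio was 0.07 in the cells with Nxph4 at 10 or less. The adhesion gene Cntn2 averaged 15.4 and 6.71 and was over 10 in 36.4% and 18.4% (-18.0 points, -34.2 to -2.26), with a ratio of 0.511 without its highest heterozygote cell. The receptor gene Ephb1 was higher, at 4.27 and 11.3, and had a mean under 10 without its highest homozygote cell. Of the neurotrophic genes, Ntrk3 (the NT-3 receptor) averaged 3.42 and 10.4, again with a mean under 10 without 1 cell, while Ret (ratio 0.659), Gfra1 (0.801) and Ntrk2 (0.614) were less than 2-fold different. Neither expressed gene of the retinoic acid list, Rxrb and Crabp2, was.

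Among the 8 expressed p53 and cell death genes 1 was higher and none lower, a count near the 5.21% and 5.62% of all entries. Ccng1, a p53 target, averaged 4.0 and 10.9 and was over 10 in 11.4% and 23% of cells. Bax and Aen had ratios of 0.686 and 0.769, and Mdm2 (ratio 1.17) was over 10 in 47.7% and 73.6%. None of the 8 expressed immediate early and stress genes was 2-fold different. Fos averaged 52.4 in heterozygotes and was 1.97-fold higher in homozygotes, Egr1 averaged 44.8 and 81.6 (1.82-fold), and 3 or more genes of that list were over 10 in 65.9% and 85.1% of cells. Of the sex-linked genes, Eif2s3y on the Y chromosome was 4.65-fold higher in homozygotes. At least 1 of 4 Y genes was over 10 in 27.3% and 49.4% of cells and Xist in 38.6% and 28.7%. The part of sex in the comparison was not tested. In the cells with Xist at 10 or less, 652 entries were higher and 742 lower.

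Entries were also ranked by the smallest log2 ratio of any homozygote set. The 3 ratios share the same 44 heterozygote cells, so a single high heterozygote cell gives a lower ratio in every set, and the rank is a description only. Several ranked entries also differed between the P1 groups with and without spike-in. Mlkl, the effector of necroptosis, had no read in any heterozygote cell and 8233 reads in homozygotes, where it exceeded 10 in all 87 cells (10.6 to 406), at least 3542-fold higher relative to all reads, against a floor of 3 reads over the group. P1 heterozygotes had a mean of 67 with spike-in and 0 without. Fanci, of the Fanconi DNA repair pathway, averaged 0.0201 and 21.9, and 12 and 0.204 in those P1 groups. Xbp1, a factor of the unfolded protein response, averaged 4674 in heterozygotes (1234 in the lowest cell) and 122.5 in homozygotes, and 114.5 with and 1072 without spike-in at P1. Lower entries of the ranking that were also lower with spike-in at P1 were Zfp36l1 (1.68 with and 35.6 without), Fabp7 (39.3 and 406.1), Aldoc (32 and 98.8) and Sparc (3.07-fold lower with). Hes5, Slc1a3 and Id3 of the progenitor list had P1 log2 ratios of -3.58, -4.00 and -3.46 on mean RPKM + 1. Mlkl, Fanci and Xbp1 thus differed in the same direction between heterozygotes that differed in spike-in, and for them genotype and spike-in cannot be told apart. For Zfp36l1, Hes5, Slc1a3 and Id3 the lower E13.5 mean did not remain without the heterozygote cell that lacked Tubb3, and for Fabp7 the ratio was then 0.720.

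The spike-in comparison was made in P1 heterozygotes with Th over 150 (groups that differ in spike-in and share the genotype), where 74.8% of the higher and 65.7% of the lower entries passed the filter on low values. Of these higher entries 26 (8.02%) were at least 2-fold higher with spike-in, against 1.64% of all entries. Of these lower entries 57 (18.6%) were at least 2-fold lower with spike-in, against 6.43% of all. Leaving out every entry that differed 2-fold in either direction at P1 left 391 higher and 404 lower, which still include the entries not compared there. Pitx3, Elovl3, Wnt5a and Ddc had ratios of 1.13, 1.08, 0.847 and 0.989, with over without spike-in, between those P1 groups, and Slc18a2 was 2.08-fold higher with spike-in, opposite to its direction at E13.5. Foxa1 and Id4 were higher with spike-in, at log2 ratios of 0.610 and 0.817 on mean RPKM + 1, the same direction as at E13.5.

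**Figure D5:**
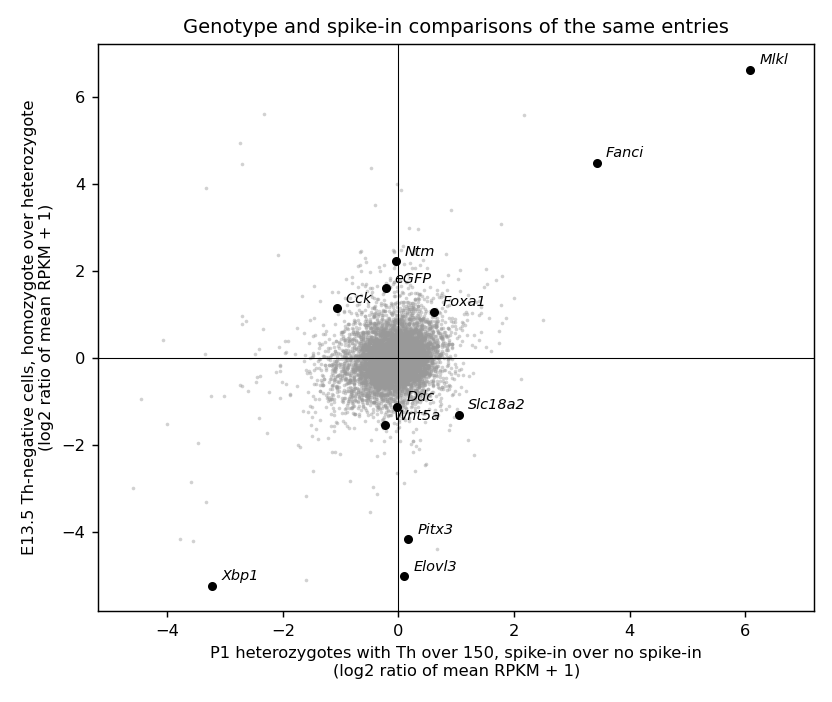
Each grey point is 1 of 7456 entries, with the log2 ratio of mean RPKM + 1 with over without spike-in in P1 heterozygotes on the x axis and homozygote over heterozygote in Th-negative E13.5 cells on the y axis. Mlkl, Fanci and Xbp1 are marked far out on both axes, where Zfp36l1 and Fabp7 also lie among the grey points, and Pitx3, Elovl3, Wnt5a, Ddc and Ntm lie near 0 on the x axis.

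For Ntm the same P1 groups stood at 124.6 with and 128.3 without spike-in. Ntm, an adhesion protein of the neurotrimin family, ranged from 0 through 0 to 228.3 in heterozygotes and from 0 through 62.2 to 762 in homozygotes. Its mean was 23.4 in heterozygotes and 4.82-fold higher in homozygotes (4.24, 4.83 and 5.5-fold in 13H_4, 13H_5 and 13H_6), and its share over 10 was 25% and 65.5% (40.5 points, 22.7 to 54.4). In the cells with Th over 150 it averaged 27.7 and 32.1. Stxbp5l (tomosyn-2, a regulator of vesicle release) averaged 4.98 and 40.1 (8.06-fold) and was over 10 in 13.6% and 43.7%. Spock1, an extracellular proteoglycan gene, averaged 4.52 and 28.9 and was over 10 in 1 and 26 cells. Lhx1 averaged 1.53 and 14.7 and was over 10 in 2 and 16 cells, 5 of them the Gad1 cells described above.

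The rest of the higher entries were Clu, Syt17, Synpr, Rad51d, Nrsn2, Optn and Spin2c, with Gad1 and Gata3 already given. They were over 10 in 0 to 3 heterozygote cells and in 6 to 27 homozygote cells. Synpr, a synaptic vesicle protein gene, had no heterozygote read (at least 834-fold higher relative to all reads, on the same floor) but was over 10 in 6 homozygote cells only, and its mean was under 10 without its highest cell, as was that of Optn.

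Of the lower entries of that ranking, Pitx3, Elovl3, Slc6a3, Gad2, Fabp7 and Xbp1 were described above. Crhbp, the corticotropin-releasing hormone binding protein, averaged 36.7 and 2.24 (16.4-fold lower) and was over 10 in 20.5% and 4.60% of cells (-15.9 points, -30.2 to -4.43). Chrm5, the muscarinic receptor of dopamine neurons, averaged 13 and 0.594 (21.8-fold lower) and was over 10 in 15.9% and 1.15% (-14.8 points, -28.3 to -5.30). The calls of both stood without their highest cell. Sparc, Zfp36l1, Mir668, H19, Tspo, Aldoc and Lrrc46 were over 10 in 1 to 4 heterozygote cells, and each lost its call without the highest of them. The heterozygote mean was then under 10 in each case, while the level in homozygotes remained 50-fold (Sparc), 120.3-fold (H19), 15.5-fold (Tspo), 6.96-fold (Aldoc) and 3.20-fold (Lrrc46) lower. In the cells with Nxph4 at 10 or less the direction turned for Aldoc and Lrrc46, with log2 ratios of 1.68 and 0.77 on mean RPKM + 1. Sparc and Zfp36l1 were carried by 1 heterozygote cell each, at 1398 and 799.

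A further view, chosen after the values were seen, took the 2-fold different entries with the largest difference in the share of cells over 10 that were also within 1.5-fold between the P1 heterozygotes with and without spike-in. After Ntm, the higher entries were led by N4bp2 (18.2% and 57.5%), Dzip3 (13.6% and 51.7%) and Spock3 (6.82% and 44.8%). Spock3, a proteoglycan relative of Spock1, averaged 2.58 and 56.7 (21.9-fold), but 7.21 in 13H_5. Rian, an imprinted noncoding RNA, was over 10 in 38.6% and 75.9%, and Resp18, a protein of neuroendocrine secretory granules, in 20.5% and 54%. The shares of these 6 entries, Ntm included, moved by at most 8.1 points after every cell was thinned to 100000 reads. All 6 kept their call without their highest cell, but entries chosen for a wide difference in share can hardly rest on 1 cell. Rtn4, a further higher entry of this view, did not keep its call, with a ratio of 1.93 without its highest homozygote cell.

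The lower entries of this view were led by Elovl3 and Snord32a, a small nucleolar RNA whose shares of 63.6% and 5.75% became 4.55% and 1.15% after thinning. Then came Cpt1c, a brain carnitine palmitoyltransferase (68.2% and 33.3%), Phlda1 (38.6% and 6.90%), Cttnbp2, a protein of dendritic spines (45.5% and 16.1%), Phldb1 (77.3% and 49.4%, with a ratio of 0.523 without its highest heterozygote cell), Pam, which amidates neuropeptides (59.1% and 32.2%), and the calcium sensor Hpcal1 (61.4% and 34.5%). The adenosine receptor gene Adora1 averaged 28.2 and 2.71 and was over 10 in 31.8% and 8.05%. Phlda1 averaged 19.1 and 2.19 here, and 21.1 and 4.72 in the cells with Th over 150.

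Promoter sequence was read for 71.2% of the named genes, those with an entry in the RefSeq table of GRCm38.p6, from 250 bases before to 50 after the start. The letters TAATCC, the core of the sites that Pitx-type homeodomains bind, were found on either strand in 7.06% of all 32851 promoters, and by gene in 6.80% of the genes tested, 8.31% of the higher and 6.17% of the lower genes. AAAGGTCA, the monomer element bound by Nr4a receptors, was in 1.51% of all promoters and, by gene, in 0.924% of those tested, 1.54% of the higher and 1.85% of the lower. A match is a string of letters in the window and not a site. The promoters of Ddc (lower, with an AAAGGTCA match on the reverse strand) and Gad1 (higher, with a TAATCC match on the reverse strand) are given as the called transmitter genes that hold a match, which is in capitals. The Ddc window is chr11:11898095-11898394, minus strand, and the Gad1 window chr2:70561879-70562178, plus strand, each at 1 of the starts listed for the gene. The window at another listed Ddc start, chr11:11890359-11890658, held neither string. Which Ddc start these cells used was not tested.
Ddc: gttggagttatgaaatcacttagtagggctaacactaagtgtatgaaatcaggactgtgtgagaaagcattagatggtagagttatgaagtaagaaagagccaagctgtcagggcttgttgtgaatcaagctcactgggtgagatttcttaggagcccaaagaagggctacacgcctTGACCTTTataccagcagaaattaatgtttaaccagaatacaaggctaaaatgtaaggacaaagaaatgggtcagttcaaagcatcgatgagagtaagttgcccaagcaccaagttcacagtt
Gad1: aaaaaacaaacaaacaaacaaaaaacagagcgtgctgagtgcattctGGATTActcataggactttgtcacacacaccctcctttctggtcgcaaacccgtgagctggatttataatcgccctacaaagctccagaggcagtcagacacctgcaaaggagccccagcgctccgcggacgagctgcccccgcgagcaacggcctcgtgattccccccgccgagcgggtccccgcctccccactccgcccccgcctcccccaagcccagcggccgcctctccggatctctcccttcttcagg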

How the data were processed

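Single cells of sorted Pitx3eGFP ventral midbrain were sequenced with Smart-seq2. Per the study's methods, the authors aligned reads with STAR to mm10 joined to eGFP and spike-in sequences, kept uniquely mapped reads and deposited, per cell, the read count and the RPKM of each Ensembl gene entry (39468 entries, of which 38130 carry a symbol and 864 share an identifier; entries without a symbol hold 0.236% of the E13.5 reads). Cells were grouped by the genotype and age in their labels. Of 331 E13.5 cells, 326 passed the read minimum and 131 were Th-negative. Python 3.11.15, numpy 2.4.6, scipy 1.17.1 and pandas 2.3.3 were used. Means, medians and ratios were computed from deposited RPKM values, and the deposited counts gave depth, bounds (floor of 3 reads) and the thinned shares. An entry was called when its mean was 10 or more in 1 genotype and at least 2-fold different. A cell had a gene when it was over 10. With 1 sample per genotype there is no test. The calling step was tested on simulated data. The simulation gave every gene the same moderate spread between cells, so it does not cover calls that rest on 1 cell.

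Named genes were the called members of 24 gene lists (242 of 243 genes found), up to 4 further genes with the highest means of each list, the Pitx3 locus, and the 15 entries each way with the largest smallest log2 ratio over the 3 homozygote sets, without predicted genes, clones, pseudogenes and shared identifiers. The members and lists were chosen with earlier results of these data known. Gene positions are from GENCODE vM21 (mm10) and promoters from RefSeq GRCm38.p6. Alternative filters, scalings and cell subsets are in the closing section. No 2 E13.5 cells had identical values.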

Additional observations from a re-analysis of the deposited data

How the results depend on the processing

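The entries called were 5.21% (higher) and 5.62% (lower) of those tested, and the settings that moved these counts by over 1.5 times were the following, as percent of the entries tested under each, higher before lower where both moved. With a mean RPKM of 1 or 50 as the filter they were 15.1% and 13.7% or 1.02% and 2.23%, and with a fold of 1.5 or 3 they were 12.9% and 15% or 2.03% and 1.77%. Summed counts scaled to the total gave 8.17% and 7.9%. Mean scaled counts gave 7.58% higher and thinned counts 8.08% higher, with the lower entries within that range. Cells without Nxph4 gave 14.6% and 14.5%, cells without Xist 7.77% and 8.84%, both with fewer cells. Entries that kept their call without their highest cell were 3.28% and 2.12%. With Th at 0 as the limit the Th-negative share was 0.714% of heterozygote and 24.7% of homozygote cells. Counts under that limit were not run, since 1 heterozygote cell was left. Leaving out a homozygote set gave shares between 45.7% and 49.5% and from 476 to 587 higher and 500 to 615 lower entries. These held between 72.3% (without 13H_4) and 87.5% of the higher and between 77.5% (without 13H_4) and 89.7% of the lower entries called in all cells. Summed counts held 64.2% and 56.3% of them.

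On log2(mean RPKM + 1), 21 of 918 ratios of the 54 called named genes changed sign, in 9 genes and under none of the scalings. Leaving out cells with cell cycle genes, taking only cells with Nxph4, only cells with eGFP and Nr4a2, or leaving out the cell without Tubb3 (the last 2 chosen after seeing the data) gave 0.10, 0.14, 0.12 and 0.10 for Zfp36l1, 0.38, 0.31, 0.49 and 0.36 for Hes5, 1.67, 1.6, 1.85 and 1.65 for Slc1a3, and 0.25, 0.05, 0.26 and 0.24 for Id3. Only cells with Nxph4 gave -0.03 for Gad1, and only cells without it 1.68 for Aldoc, 0.77 for Lrrc46, -0.30 for Cck and 0.07 for Efna5. Apart from the cell without Tubb3, the cause was not tested. No cell met the limit for other cell types, so leaving such cells out changed nothing. No paired analysis was possible because the replicate numbers only name cells and each genotype is 1 sample. Homozygote depth, lowest in 13H_5, limits what a value of 0 shows.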
